A study of Glycine max with 14 samples.

Results

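In germinating soybean cotyledons, 150 gene loci held their highest RNA level at stage 2 or stage 3 of 7 sampled stages and lower levels both before and after. They were chosen from 69145 loci by their RPKM values (reads per length of the model and per depth of the library). Each locus was represented by its model with the highest mean RPKM over the 14 libraries. Of all loci, 15816 had their highest stage mean at stage 2 or 3, and 3442 of these reached at least 10 RPKM there. A score compared the mean of the 4 libraries of stages 2 and 3 with the largest of the stage 1, 6 and 7 means, as a log2 ratio after adding 1 RPKM to each. The score was at least 1 in 309 loci, and 307 of these lay outside the identifiers starting Glyma13g11 or Glyma13g12. The 150 with the highest scores are described here. The peak at stages 2 and 3 and the low levels at stages 1, 6 and 7 are therefore properties of the choice and carry no test.

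The plants were the cultivar Williams, grown in a greenhouse, and the cotyledons were lyophilized before total RNA was extracted. Stage 1 was sampled 1 day after imbibition. The later stages were counted in days after planting: stage 2 at day 2, stage 3 between days 2 and 3, stage 4 between days 3 and 4, stage 5 between days 4 and 5, stage 6 between days 5 and 6 and stage 7 between days 6 and 7. Every stage had 2 biological replicates, with no genetic or chemical treatment in the labels, and the sources used here do not give the number of seedlings in a replicate. RNA came from cotyledon tissue in bulk, so fewer cells of a type and less RNA per cell cannot be told apart.

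Cotyledons are the storage leaves of the soybean embryo. During germination they take up water, break down their stored protein and oil to feed the seedling, and in soybean they are then lifted above the soil, turn green and carry out photosynthesis. RNAs that are high for a short time between the dry seed and the green cotyledon therefore belong to a period in which the organ changes its work. The deposited files pair no identifier with a gene name, and the RefSeq gene table at hand matched 0 of the 150 loci. The loci are named by identifier alone, with no role, position or sequence, and markers of the cotyledon were not checked here. The chromosome numbers below are those written in the identifiers.

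Depth was high in every library, with 83.9 M to 131 M reads assigned to models (M, reads in units of 1e+06). Among the 2100 values of the 150 loci (150 loci in 14 libraries) 0 were at or under 3 reads, and the locus with the fewest reads in its highest library had 231 there. The libraries differed in ways that touch the results. The stage 1 replicates stood further apart than those of any other stage: over all tested models their log2 values correlated at r = 0.803 with an SD of the difference of 1.10, against r from 0.945 to 0.963 and an SD from 0.437 to 0.531 at the other 6 stages. In 10 of the 150 loci, over 90% of the summed RPKM of stages 2 and 3 came from stage 3 replicate 1. Several counts along the course are given below with and without these 10 loci, as are fits without single libraries where they change a result.

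The peak fell at stage 3 in 141 loci (94.0%) and at stage 2 in 9. Of the 3442 loci that peaked at stage 2 or 3 with at least 10 RPKM, 63.0% peaked at stage 3. The rule used these values. Without the 10 loci with most of their signal in 1 library, the peak fell at stage 3 in 131 of 140. The summed RPKM of the 150 loci, in replicates 1 and 2, was 2576 and 7474 at stage 1, 17678 and 12752 at stage 2, 21959 and 16955 at stage 3, 15061 and 7917 at stage 4, 6478 and 4689 at stage 5, 2621 and 2010 at stage 6, and 2730 and 1966 at stage 7. All 4 libraries of stages 2 and 3 thus held more of these RNAs than any library of stages 1, 5, 6 and 7, while stage 4 replicate 1 lay above stage 2 replicate 2. As a share of all RPKM in a library the 150 loci ran from 0.265% in stage 6 replicate 2 to 3.35% in stage 3 replicate 1. The median locus had a peak stage mean of 29.6 RPKM, 33 loci reached at least 100 RPKM and 52 stayed under 20 RPKM.

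**Figure D1:**
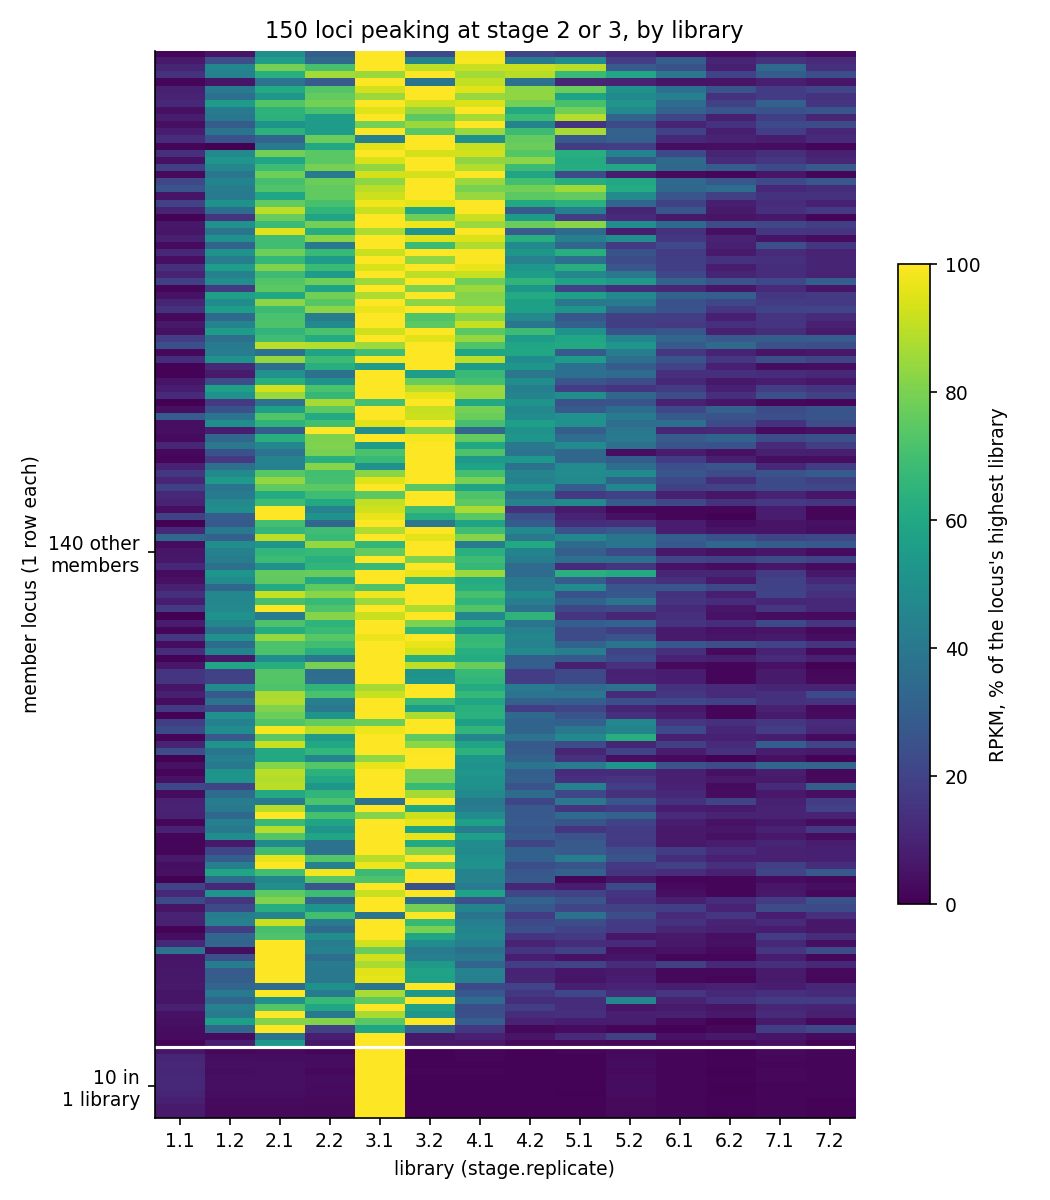
Heatmap of the 150 loci (rows) in the 14 libraries (columns, written as stage.replicate), with RPKM shown as a percent of the highest library of each locus. The 140 loci above the white line are bright in stage 2 and 3 libraries and often in stage 4 replicate 1, and the 10 below it are bright in stage 3 replicate 1 alone.

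The heatmap of the 14 libraries shows the course locus by locus. All 4 libraries of stages 2 and 3 lay above all 6 libraries of stages 1, 6 and 7 in 129 of the 150 loci; the same held in 10.2% of the 35545 tested loci, and since the rule used these stages nothing is read from the difference. Of the other 21 loci, 10 were those with most of their signal in 1 library. In 10 of the remaining 11 the overlap came from stage 1 replicate 2. All 4 libraries lay above the other 10 libraries, stages 4 and 5 included, in 37 loci (24.7%). The same held in 1.31% of tested loci. It held in 6.42% of the 3442 loci that peaked at stage 2 or 3 with at least 10 RPKM. The rule used these values, so nothing is read from these shares either.

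The most abundant of these RNAs was that of Glyma02g03280, a model of 810 bases. In replicates 1 and 2, the order kept for all pairs of values here, it had 1144 and 1700.2 RPKM at stage 1, 5841 and 2996 at stage 2, 5649.7 and 3639 at stage 3, 4335 and 1467 at stage 4, 588 and 259 at stage 5, 78.1 and 39.9 at stage 6 and 459 and 77.8 at stage 7. All 4 libraries of stages 2 and 3 and stage 4 replicate 1 held at least 2996 RPKM in this locus, and the libraries of stages 5 to 7 at most 588. This 1 locus held between 1.98% of the summed RPKM of the 150 loci (stage 6 replicate 2) and 44.4% (stage 1 replicate 1). Its stage 4 mean was 62.5% of the peak mean and its stage 5 mean 9.12%.

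Next in level came Glyma06g45950, with 22.6 and 139 RPKM at stage 1, 1039 and 837 at stage 2, 2124 and 1331 at stage 3, 1302 and 646 at stage 4, 595 and 478 at stage 5, 208 and 177 at stage 6 and 256 and 190.4 at stage 7. Glyma12g10780 had 14.6 and 111 RPKM at stage 1, 784 and 579.9 at stage 2, 1547 and 862 at stage 3, 1043 and 612 at stage 4, 565 and 541 at stage 5, 206 and 206 at stage 6 and 197 and 170.3 at stage 7. Glyma19g41120 had 61.8 and 668 RPKM at stage 1, 1041 and 832 at stage 2, 1380.3 and 944 at stage 3, 848 and 558 at stage 4, 404 and 258 at stage 5, 192 and 92.1 at stage 6 and 269.7 and 155 at stage 7. All 3 loci had their highest value in stage 3 replicate 1 and their lowest in stage 1 replicate 1. The first and second stayed above their stage 1 level at stages 6 and 7, whereas in Glyma19g41120 the stage 1 replicates, at 61.8 and 668 RPKM, lay on both sides of the stage 6 and 7 libraries.

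With peak means of 608, 583, 534 and 530.4 RPKM, Glyma08g22880, Glyma12g07780, Glyma07g03220 and Glyma11g04720 completed the 8 most abundant loci. Glyma08g22880 had 9.73 and 267 RPKM at stage 1, 419 and 363 at stage 2, 620.0 and 597 at stage 3, 352 and 179 at stage 4, 161 and 128 at stage 5, 48.3 and 30.8 at stage 6 and 40.96 and 21.4 at stage 7. Glyma12g07780 had 153 and 256 RPKM at stage 1, 566 and 559 at stage 2, 536 and 629 at stage 3, 456 and 369.8 at stage 4, 381 and 328 at stage 5, 178 and 219 at stage 6 and 157 and 151 at stage 7. The stage 7 mean was 5.12% of the peak mean in Glyma08g22880 and 26.4% in Glyma12g07780, whose replicates at stage 2 and at stage 7 were close to each other. Glyma07g03220 ran close to Glyma08g22880 in every library, and Glyma11g04720 peaked at a mean of 530.4 ± 237 RPKM (SD, n = 2) at stage 3, against 383.5 ± 181 at stage 2, a difference smaller than its replicate spread.

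**Figure D2:**
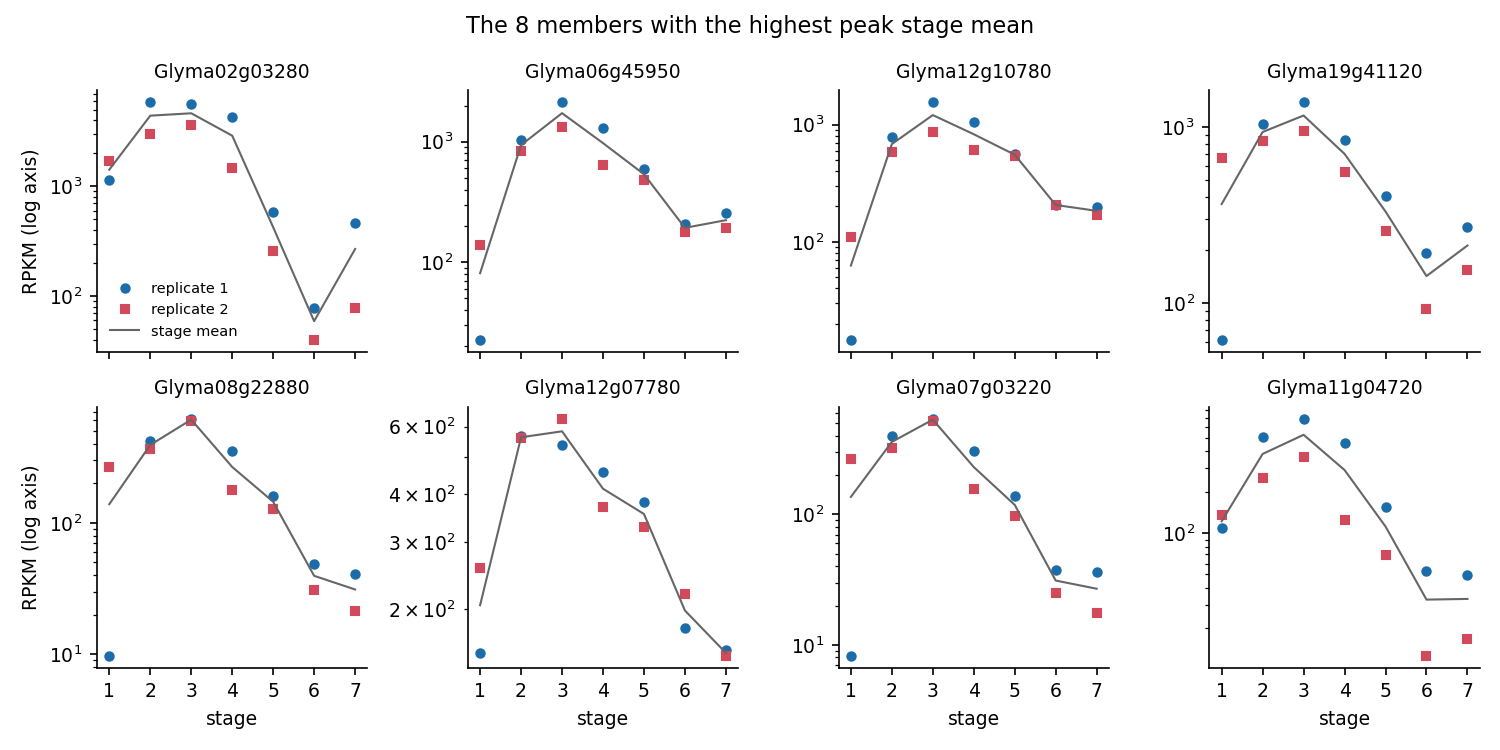
RPKM on a log axis against stage for the 8 loci with the highest peak stage mean; blue circles are replicate 1, red squares replicate 2 and the line joins the stage means. All 8 are highest at stage 3 by mean; 5 have their lowest value in stage 1 replicate 1 and the others at stage 6 or 7.

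The plot of the 8 most abundant loci shows how far the replicates disagreed at stage 1. Glyma08g22880 had 9.73 RPKM in replicate 1 and 267 RPKM in replicate 2 there, while its stage 3 replicates (620.0 and 597 RPKM) differed by a small part of their level. The stage 3 replicates were further apart in other loci of the plot, such as Glyma02g03280 (5649.7 and 3639 RPKM) and Glyma12g10780 (1547 and 862 RPKM).

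The highest score, 3.60, belonged to Glyma05g28530, a model of 1531 bases. It had 0.729 and 0.150 RPKM at stage 1, 17.4 and 25.1 at stage 2, 40.3 and 42.02 at stage 3, 38.5 and 32.6 at stage 4, 7.30 and 7.81 at stage 5, 1.56 and 1.76 at stage 6 and 1.55 and 0.641 at stage 7. Every library of stages 2 to 4 was above 17 RPKM, and every library of stages 1, 6 and 7 was below 2 RPKM, so both stage 1 replicates were low here. Computed within each replicate number alone its score was 3.54 and 3.65.

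The second score, 2.87, was that of Glyma09g32760, with 0.324 and 5.43 RPKM at stage 1, 26.8 and 20.4 at stage 2, 34.9 and 27.2 at stage 3, 32.1 and 18.99 at stage 4, 6.36 and 4.31 at stage 5, 2.40 and 1.79 at stage 6 and 2.37 and 0.672 at stage 7. Glyma13g24720 scored 2.65, with 0.435 and 1.38 RPKM at stage 1, 12.5 and 7.74 at stage 2, 25.5 and 5.68 at stage 3, 25.03 and 5.21 at stage 4, 4.19 and 2.96 at stage 5, 1.48 and 0.874 at stage 6 and 1.61 and 0.805 at stage 7. The first kept 82.3% of its peak mean at stage 4 and 17.2% at stage 5. Glyma13g24720 kept 97.1% at stage 4, the highest share of the 150, but its stage 3 and stage 4 means rested on replicate 1, whose values were over 4 times those of replicate 2 at both stages.

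Of the other loci with the 8 highest scores, Glyma19g36820 had 0.480 and 7.60 RPKM at stage 1, 30.6 and 15.2 at stage 2, 43.3 and 34.5 at stage 3, 19.6 and 10.6 at stage 4, 8.85 and 7.23 at stage 5, 4.72 and 3.74 at stage 6 and 3.41 and 2.78 at stage 7. Glyma20g00740 had 0.0485 and 2.87 RPKM at stage 1, 6.34 and 14.7 at stage 2, 11.9 and 16.9 at stage 3, 10.2 and 8.75 at stage 4, 4.19 and 4.40 at stage 5, 1.56 and 1.004 at stage 6 and 0.367 and 0.329 at stage 7. In Glyma20g00740 replicate 2 was above replicate 1 at stages 1, 2 and 3, the reverse of Glyma19g36820 at stages 2 and 3. Glyma16g22010 (score 2.48) peaked at 15.7 ± 2.41 RPKM and Glyma05g06780 (score 2.42) at 27.7 ± 9.70 RPKM at stage 3 (SD, n = 2 each).

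What followed the peak was not set by the score, which uses neither stage 4 nor stage 5, although a low stage 6 mean requires a fall somewhere before it. At stage 4 the mean was over 50% of the peak mean in 95 loci, 25 to 50% in 41 and under 25% in 14. These are 63.3%, 27.3% and 9.33% of the 150, against 66.8%, 20.05% and 13.1% of tested loci. At stage 5 the mean was over 50% in 24, 25 to 50% in 62 and under 25% in 64. These are 16.0%, 41.3% and 42.7% of the 150, against 59.5%, 26.0% and 14.55% of tested loci. The median share of the peak was 60.3% at stage 4 and 28.9% at stage 5, and then 13.2% at stage 6 and 13.1% at stage 7. For the 3442 loci that peaked at stage 2 or 3 with at least 10 RPKM, the medians were 75.4%, 55.8%, 34.4% and 41.0%. Of these 3442, 88.1% were over 50% of the peak mean at stage 4 and 62.5% at stage 5.

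The descent was stepwise in most loci: means were lower at each step between stages 3 and 6 in 132 of the 150. In the 141 loci with a stage 3 peak, a lower mean at stage 4 follows from the position of the peak. Stage 5 means lay below stage 4 means in 88.7% of the 150 loci, against 92.2% of the 3442 loci. Stage 6 means lay below stage 5 means in 99.3% of the 150, against 96.4% of the 3442. Falls at these later steps were thus common to loci with such a peak. The first stage with a mean under 50% of the peak was stage 4 in 55 loci, stage 5 in 72 and stage 6 in 23. The largest single step down on the log2(mean + 1) scale came between stages 3 and 4 in 41 loci, between stages 4 and 5 in 38 and between stages 5 and 6 in 71. Without the 10 single-library loci, 31, 38 and 71 of 140 loci had their largest step down there, 45, 72 and 23 were first under 50% at stages 4, 5 and 6, and 54 were under 25% at stage 5.

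Replicates at stage 4 did not give the same picture. Replicate 1 lay above replicate 2 in 140 of the 150 loci (93.3%), and likewise in 94.9% of the 3442 loci with a peak at stage 2 or 3 and in 74.0% of the 35545 tested loci. By replicate 1 alone 128 loci were over 50% of the peak mean, with a median of 71.8%, and by replicate 2 alone 55 loci, with a median of 43.6%. In Glyma11g04720, for example, stage 4 had 458 RPKM in replicate 1, above the stage 2 mean, and 126 RPKM in replicate 2, below the stage 1 replicate 2 value of 137. How much remained at stage 4 thus depended on the library.

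**Figure D3:**
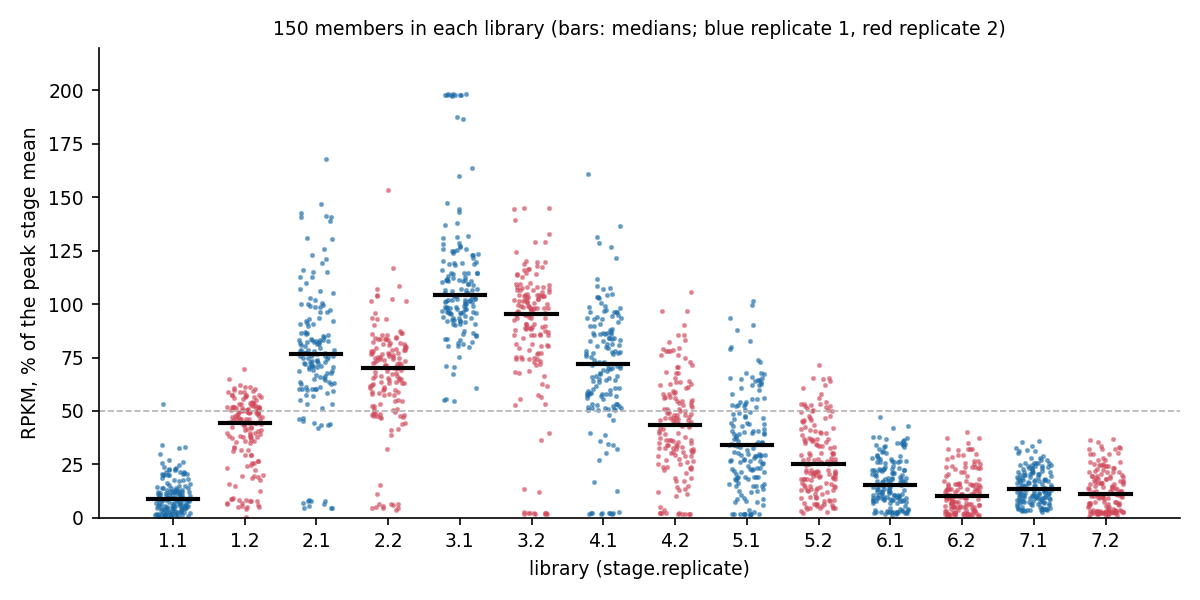
Each point is 1 of the 150 loci in 1 library (x axis, stage.replicate; blue replicate 1, red replicate 2), with RPKM as a percent of the locus's peak stage mean on the y axis; black bars are medians and the dashed line marks 50%. The medians of the replicates differ most at stage 1 and at stage 4, where they are 71.8% in replicate 1 and 43.6% in replicate 2.

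The plot of percent of peak by library shows the same at stage 1. Replicate 2 was above replicate 1 in 133 loci. Replicate 1 was the higher one in 17 loci (11.3%), in 13.2% of the 3442 loci with such a peak and in 31.5% of tested loci. All 10 single-library loci were among these 17. Without them replicate 2 was above replicate 1 in 133 of 140 loci. The median locus had 2.55 RPKM in replicate 1 and 12.8 RPKM in replicate 2. Against the mean of the 4 libraries of stages 2 and 3, the median was 9.79% in replicate 1 and 50.4% in replicate 2. Stage 1 was the highest of the 3 flanking stage means in 116 loci, stage 6 in 24 and stage 7 in 10, so the stage 1 mean set the score of most loci. Within replicate 1 alone 145 loci scored at least 1 (median 1.98), and within replicate 2 alone 49 did (median 0.76). The score was at least 1 in each replicate alone in 45 loci, among them Glyma05g28530, Glyma09g32760, Glyma06g45950 and Glyma12g07780.

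Glyma15g15200 departed from the common course at the end. It peaked at stage 2, and its values were 3.29 and 33.4 RPKM at stage 1, 100.2 and 19.2 at stage 2, 59.3 and 31.8 at stage 3, 16.03 and 2.17 at stage 4, 3.45 and 1.65 at stage 5, 0.848 and 1.99 at stage 6 and 18.7 and 21.96 at stage 7. Both stage 7 libraries were near the lower stage 2 replicate, and all 4 libraries of stages 5 and 6 were below 4 RPKM. Its peak rested on stage 2 replicate 1, and within replicate 2 alone its score was -0.38.

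The 9 loci with a stage 2 peak were Glyma07g38460, Glyma10g31770, Glyma15g42500, Glyma07g11310, Glyma15g42490, Glyma09g30910, Glyma02g39570, Glyma17g17210 and Glyma15g15200. Glyma07g11310 had 27.9 and 238 RPKM at stage 1, 575 and 232 at stage 2, 499.9 and 301 at stage 3, 140.3 and 75.8 at stage 4, 77.6 and 48.4 at stage 5, 53.8 and 39.7 at stage 6 and 68.4 and 51.6 at stage 7. Glyma09g30910 had 16.1 and 118 RPKM at stage 1, 283 and 118 at stage 2, 247 and 150.4 at stage 3, 77.8 and 45.4 at stage 4, 60.97 and 36.6 at stage 5, 44.95 and 31.3 at stage 6 and 38.4 and 33.8 at stage 7. In both, stage 2 replicate 1 was the highest library and both stage 4 libraries lay below both libraries of stage 3, with stage 4 means at 26.8% and 30.7% of the peak. The stage 2 and stage 3 means differed by less than 4 RPKM in each, against SDs of at least 68.6 RPKM, so the order of these stages could not be resolved.

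Glyma15g42500 and Glyma15g42490 peaked at stage 2 and kept over 80% of that level at stage 4, again through replicate 1. Glyma15g42500 had 3.64 and 13.9 RPKM at stage 1, 34.9 and 25.4 at stage 2, 35.7 and 23.2 at stage 3, 38.7 and 10.9 at stage 4, 16.8 and 4.08 at stage 5, 10.4 and 2.80 at stage 6 and 5.29 and 6.50 at stage 7. Its stage 4 replicate 1 was the highest of its 14 libraries, and stage 4 replicate 2 lay below stage 1 replicate 2.

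In some loci the 4 libraries of stages 2 and 3 were close to one another. In Glyma02g18910, a model of 285 bases, values were 6.03 and 13.04 RPKM at stage 1, 26.5 and 23.995 at stage 2, 26.3 and 26.9 at stage 3, 17.7 and 8.71 at stage 4, 10.8 and 12.1 at stage 5, 6.01 and 2.94 at stage 6 and 4.85 and 2.99 at stage 7. The highest of its 4 peak libraries held 26.0% of their sum, where 25% would mean equal values. Glyma08g01690 (27.0%), Glyma12g07780 (27.5%) and Glyma05g37910 (27.9%) came next. Glyma05g37910 had 5.05 and 14.5 RPKM at stage 1, 30.5 and 22.1 at stage 2, 30.7 and 26.9 at stage 3, 22.3 and 11.4 at stage 4, 6.59 and 7.06 at stage 5, 3.75 and 1.89 at stage 6 and 4.91 and 3.53 at stage 7. Here stages 2 and 3 lay between 22.1 and 30.7 RPKM, and stage 4 replicate 1 reached the lower end of that range.

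The opposite was seen in 10 loci: Glyma11g36230, Glyma06g31330, Glyma15g27240, Glyma03g10290, Glyma01g23740, Glyma07g28640, Glyma10g18830, Glyma10g13910, Glyma04g27590 and Glyma10g13500. Between 92.2% and 95.1% of their summed stage 2 and 3 RPKM came from stage 3 replicate 1. Glyma11g36230 had 2.18 and 0.767 RPKM at stage 1, 0.846 and 0.630 at stage 2, 35.4 and 0.334 at stage 3, 0.429 and 0.415 at stage 4, 0.483 and 0.838 at stage 5, 0.636 and 0.345 at stage 6 and 0.869 and 0.486 at stage 7. Glyma15g27240 had 6.17 and 1.87 RPKM at stage 1, 2.41 and 1.33 at stage 2, 57.2 and 0.780 at stage 3, 0.736 and 0.492 at stage 4, 0.520 and 1.49 at stage 5, 0.704 and 0.275 at stage 6 and 1.16 and 0.798 at stage 7. In all 10 loci stage 3 replicate 1 was between 20.9 and 57.2 RPKM, stage 1 replicate 1 was the second highest library, and stage 3 replicate 2 was below 1 RPKM.

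These 10 loci shared a feature that the rule did not use. Of them, 9 are the only loci among the 150 with models of at least 8000 bases, with Glyma03g10290 the longest at 13469 bases, and only Glyma15g27240 is short, at 515 bases. Their identifiers carry 8 different chromosome numbers. Over the 14 libraries their log2(RPKM + 1) values correlated with one another at a median r of 0.996, a description that rests largely on the 1 library. With them, 14 loci were under 25% of the peak at stage 4, and without them 4 of 140 were: Glyma14g35350, Glyma02g37070, Glyma15g15200 and Glyma09g01470. Glyma14g35350 had 0.284 and 1.74 RPKM at stage 1, 10.9 and 1.21 at stage 2, 20.5 and 1.47 at stage 3, 1.38 and 0.545 at stage 4, 0.403 and 0.343 at stage 5, 0.477 and 0.360 at stage 6 and 0.948 and 0.176 at stage 7. In this locus and in Glyma02g37070, too, replicate 1 carried the peak, with 60.2% and 65.1% of the stage 2 and 3 sum in stage 3 replicate 1. Glyma09g01470 had between 9.88 and 13.3 RPKM in all 4 libraries of stages 2 and 3, and 3.97 and 1.27 RPKM at stage 4.

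**Figure D4:**
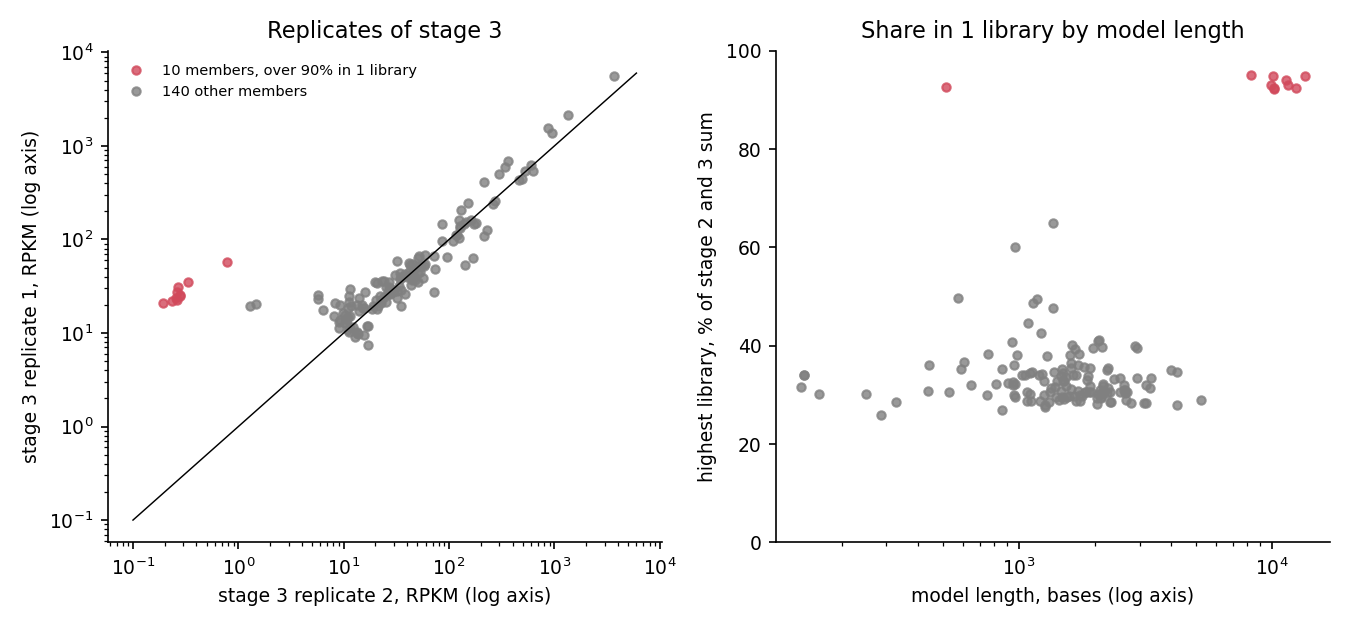
Left, RPKM of each of the 150 loci in stage 3 replicate 1 (y axis) against stage 3 replicate 2 (x axis), both on log axes with the line of equal values. Right, percent of the summed stage 2 and 3 RPKM held by the highest library (y axis) against model length in bases (log x axis); the 10 loci in red lie above 90%, 9 of them at lengths over 8000 bases, and the 140 others lie below 66%.

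The plot of the stage 3 replicates separates these 10 loci from the rest, whose highest library held between 26.0% and 65.1% of the sum. The counts of stage 4 over 50% of peak (95), of loci with all 4 peak libraries above the 6 flanking ones (129) and of scores of at least 1 in each replicate (45) were the same without them.

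For 4 differences between stages the rule left the direction free, although the means of stages 1, 2, 3, 6 and 7 entered it and so limit how large these differences can be. The shares and medians of the 150 loci stand beside those of all tested loci or models as descriptions, and nothing is read from their difference. The 4 differences were tested with limma on log2(RPKM + 1) over all 44450 models that reached 1 RPKM in 2 or more libraries. All 150 loci passed that filter. A model was called at a Benjamini-Hochberg adjusted p under 0.05 and a log2 fold change of at least 1 in size. The error of every comparison is pooled over the stages, the wide stage 1 pair included. It can therefore overstate the spread of the other stages and understate that of stage 1.

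Stage 3 against stage 2 gave 0 called models in the whole table (0%), 672 at an unadjusted p under 0.05, and 0 called models with limma voom on the recovered reads. Among the 150 loci, 0 were called and 1 had an unadjusted p under 0.05. These numbers depended on the pooled error. With only the libraries of stages 2 and 3 in the limma fit, 0 models were called in the whole table. An unadjusted p under 0.05 was then found in 3429 models and in 27 of the 150 loci. The log2 fold change was positive in 146 of the 150, with a median of 0.40 against 0.02 over all tested models. Without stage 3 replicate 1 it was positive in 115, and without stage 3 replicate 2 in 138. Without stage 2 replicate 1 it was positive in 141, and without stage 2 replicate 2 in 118. Both libraries of stage 3 lay above both of stage 2 in 80 loci (53.3%), against 23.8% of tested loci, in values that the rule used. The locus with the smallest p was Glyma05g28530, with 41.1 ± 1.25 RPKM at stage 3 and 21.2 ± 5.49 RPKM at stage 2 (SD, n = 2 each), a log2 fold change of 0.94 ± 0.29 (SE) and a limma adjusted p of 1.00. Glyma03g10290 averaged 10.6 ± 14.7 RPKM at stage 3 and 0.481 ± 0.0227 RPKM at stage 2, a mean set by 1 library. The means lay the other way in Glyma17g17210, at 11.6 ± 4.98 RPKM at stage 3 and 14.1 ± 7.81 RPKM at stage 2, and in Glyma15g42490, at 18.7 ± 6.70 RPKM at stage 3 and 21.1 ± 6.25 RPKM at stage 2. Without stage 3 replicate 2, 10 loci were called higher at stage 3, and all 10 are those with most of their signal in stage 3 replicate 1.

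Stage 5 against stage 4 called 27 models in the whole table (0.0607%), 26 higher at stage 5 (0.0585%) and 1 lower (0.00225%), and 1 of the 150 loci, lower. The lower one was Glyma05g28530, at 7.55 ± 0.359 RPKM at stage 5 and 35.5 ± 4.16 RPKM at stage 4 (SD, n = 2 each), a log2 fold change of -2.09 ± 0.29 (SE) with a limma adjusted p of 0.0478. Its 2 stage 5 libraries (7.30 and 7.81 RPKM) and its 2 stage 4 libraries (38.5 and 32.6 RPKM) were both close pairs. The call was lost in 17 of 24 alternative settings, among them a pseudocount of 0.5 and limma voom on the recovered reads, while its log2 fold change stayed between -2.23 and -1.69 in all 24. The median fold change over the 150 loci was -0.70 against -0.18 over all tested models. Without stage 4 replicate 1 it was -0.36 against -0.04, and without stage 4 replicate 2 it was -0.997 against -0.302. Both stage 5 libraries lay below both of stage 4 in 86 loci (57.3%), against 27.3% of tested loci. A low level at stage 6 was required of these loci, so a lower median at stage 5 is partly built in. The means were higher at stage 5 in 17 loci. Among the 141 loci with at least 5 RPKM in 2 libraries, the log2 fold change was positive in 8. The 10 single-library loci had at most 2.41 RPKM in any library outside replicate 1 of stages 1 and 3, stages 4 and 5 included. Glyma13g43910 was among the 17, with 7.80 ± 1.49 RPKM at stage 5 and 5.92 ± 0.752 RPKM at stage 4 (log2 fold change 0.34, limma adjusted p = 0.863). Glyma02g37070 had 3.02 ± 0.958 RPKM at stage 5 and 1.40 ± 0.503 RPKM at stage 4.

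Stage 7 against stage 6 called 458 models in the whole table (1.03%), 405 higher (0.911%) and 53 lower (0.119%). With upper quartile scaling these were 144 higher and 99 lower, and the median log2 fold change over all models was -0.02 with that scaling and 0.21 without it. Of the 150 loci 0 were called and 4 had an unadjusted p under 0.05, and limma voom on the recovered reads called 0 models in the whole table and so 0 of them. Their median log2 fold change was -0.03, below that of all models by a similar distance under upper quartile scaling, where it was -0.28. Without stage 6 replicate 1 it was 0.18, and without stage 6 replicate 2 it was -0.21. Both stage 7 libraries lay above both of stage 6 in 28 loci (18.7%), against 41.6% of tested loci, and below both in 33 (22.0%), against 13.6%. The largest fold change was that of Glyma15g15200, at 20.3 ± 2.28 RPKM at stage 7 and 1.42 ± 0.807 RPKM at stage 6 (SD, n = 2 each), 3.18 ± 1.04 (SE) on the log2 scale with a limma adjusted p of 0.170. Glyma11g20180 came nearest to a call, with 60.2 ± 4.48 RPKM at stage 7 and 169 ± 7.68 RPKM at stage 6, a log2 fold change of -1.48 ± 0.33 (SE) and a limma adjusted p of 0.0676. It was called lower in 4 of 24 alternative settings: upper quartile scaling (limma adjusted p = 0.0318), the replicate block (0.0468), and the fits without stage 1 replicate 1 (0.0225) or without stage 1 replicate 2 (0.0223). Over all 24 its adjusted p ran from 0.0223 to 0.395. Glyma18g41910 averaged 7.54 ± 4.41 RPKM at stage 7 and 2.19 ± 1.59 RPKM at stage 6, and Glyma19g43920 1.24 ± 0.180 RPKM at stage 7 and 5.11 ± 2.88 RPKM at stage 6, and neither was called.

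Glyma11g20180 also stands out for its slow descent. It had 126 and 206 RPKM at stage 1, 356 and 371 at stage 2, 440.1 and 491 at stage 3, 392 and 387 at stage 4, 421 and 303 at stage 5, 164 and 175 at stage 6 and 57.02 and 63.4 at stage 7. It kept 83.7% of its peak at stage 4 and 77.7% at stage 5, the highest stage 5 share of the 150 loci, and its stage 4 replicates were closer to each other than those of any other stage.

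Stage 7 against stage 1 called 15596 models in the whole table (35.1%), 18.4% higher and 16.6% lower. Of the 150 loci 12 were called, 2 higher and 10 lower at stage 7, with a median log2 fold change of -0.44 against -0.12 over all tested models. The rule kept both stages low relative to the peak, which limits the size and number of such changes. The p-values given here belong to loci chosen partly on these same values. The 2 higher loci were Glyma12g10780, at 184 ± 18.8 RPKM at stage 7 and 62.6 ± 68.0 RPKM at stage 1 (SD, n = 2 each; log2 fold change 2.14 with an SE of 0.73; limma adjusted p = 0.0337), and Glyma06g45950, at 223 ± 46.0 RPKM at stage 7 and 80.8 ± 82.3 RPKM at stage 1 (1.95 ± 0.69; limma adjusted p = 0.0409). Both stage 7 libraries lay above both of stage 1 in each. The 2 largest falls were Glyma02g03280, at 268 ± 269 RPKM at stage 7 and 1422 ± 393 RPKM at stage 1 (-2.87 ± 0.84; limma adjusted p = 0.0172), and Glyma20g29840, at 19.95 ± 13.4 RPKM at stage 7 and 148 ± 132 RPKM at stage 1 (-2.63 ± 0.72; limma adjusted p = 0.0126). The other 8 lower loci were Glyma16g30060, Glyma06g02240, Glyma04g02140, Glyma09g39010, Glyma04g21910, Glyma11g33030, Glyma17g06170 and Glyma11g20180, with log2 fold changes between -2.32 and -1.41. Over 24 alternative settings the call was lost in 15 for Glyma06g45950, 6 for Glyma12g10780, 4 for Glyma02g03280 and 3 for Glyma20g29840. The log2 fold change of Glyma12g10780 was 0.72 without stage 1 replicate 1 and 3.56 without stage 1 replicate 2, and that of Glyma06g45950 0.66 and 3.23. In Glyma02g03280 it was -1.60 without stage 7 replicate 2 and -4.15 without stage 7 replicate 1, and in Glyma20g29840 -1.57 without stage 1 replicate 2 and -3.70 without stage 1 replicate 1.

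This comparison changed with the stage 1 library used. Without stage 1 replicate 1, 77 loci were called, all lower at stage 7, with a median log2 fold change of -1.24. Without stage 1 replicate 2, 28 were called, 24 higher and 4 lower, with a median of 0.49. Without stage 7 replicate 2, 4 were called, and with only the 4 libraries of stages 1 and 7 in the fit 1 was (Glyma04g21910). Glyma04g21910 had 10.7 and 17.8 RPKM at stage 1, 27.5 and 30.1 at stage 2, 45.6 and 45.3 at stage 3, 29.4 and 13.2 at stage 4, 4.80 and 9.22 at stage 5, 3.68 and 6.55 at stage 6 and 3.64 and 3.36 at stage 7. Its 2 stage 1 libraries were both above both stage 7 libraries. Over the 150 loci both stage 7 libraries lay above both of stage 1 in 6 (4.00%, against 29.3% of tested loci) and below both in 34 (22.7%, against 36%), and since the rule kept both stages low relative to the peak nothing is read from these differences.

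**Figure D5:**
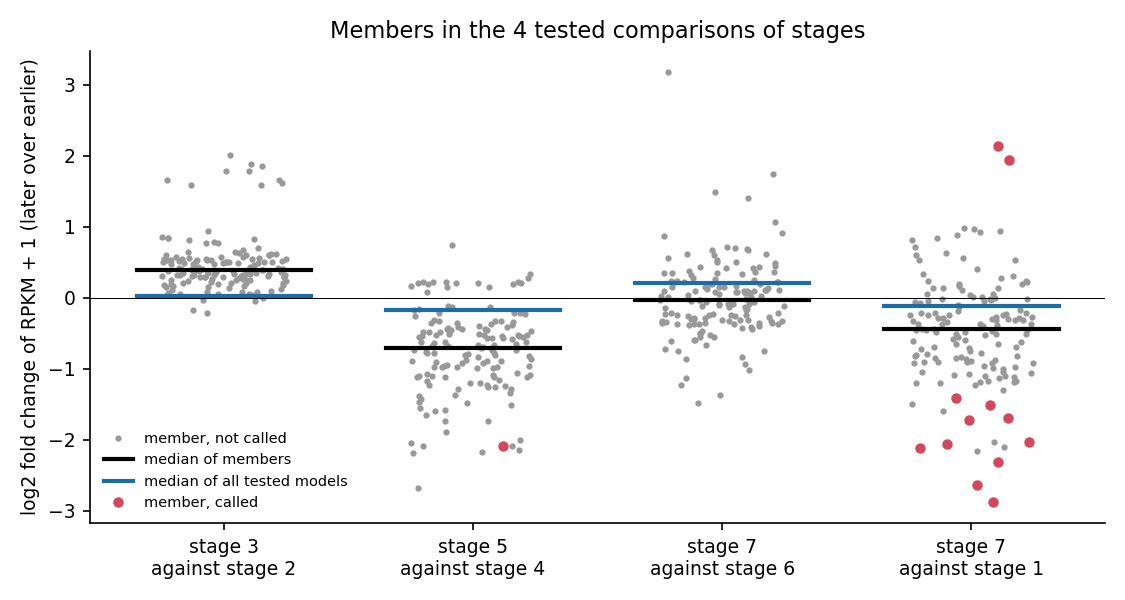
Log2 fold change of RPKM + 1, later over earlier stage, for each of the 150 loci (points) in the 4 tested comparisons; red points were called, black bars are medians of the 150 and blue bars medians of all tested models. The medians of the 150 are 0.40, -0.70, -0.03 and -0.44, with 0, 1, 0 and 12 called loci.

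The plot of the 4 tested comparisons shows 146 of 150 points above 0 for stage 3 against stage 2, 17 above 0 for stage 5 against stage 4, 73 for stage 7 against stage 6 and 35 for stage 7 against stage 1.

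Features that the rule did not use were also described. The identifiers carry all 20 chromosome numbers, with 15 loci on chromosome 8, 11 on chromosome 7 and 10 each on chromosomes 5, 10 and 14. In 5 pairs, 10 loci in all had neighbouring identifiers (no more than 50 apart in number): Glyma09g30910 with Glyma09g30920, Glyma08g16420 with Glyma08g16430, Glyma10g31770 with Glyma10g31780, Glyma15g42490 with Glyma15g42500, and Glyma15g06510 with Glyma15g06520. Over the 14 libraries the first, second and last of these pairs were at r = 0.996, 0.992 and 0.999 on the log2(RPKM + 1) scale. The correlation was lower than these values for Glyma10g31770 with Glyma10g31780 and for Glyma15g42490 with Glyma15g42500. In the pair of Glyma10g31770 and Glyma10g31780, only Glyma10g31770 peaked at stage 2. Glyma08g16420 had 32.4 and 84.3 RPKM at stage 1, 125 and 134 at stage 2, 148 and 172 at stage 3, 134 and 113 at stage 4, 99.3 and 92.996 at stage 5, 54.7 and 43.99 at stage 6 and 37.5 and 51.3 at stage 7. Glyma08g16430, a model of 162 bases, had 22.9 and 57.7 RPKM at stage 1, 85.4 and 99.001 at stage 2, 104 and 125 at stage 3, 110.2 and 85.6 at stage 4, 77.2 and 74.8 at stage 5, 42.2 and 36.3 at stage 6 and 27.9 and 34.8 at stage 7. Both were highest in stage 3 replicate 2 and they kept 77.2% and 85.7% of the peak at stage 4.

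Alike courses also joined loci on different chromosome numbers. Outside the 10 single-library loci, 34 of 9730 pairs of loci had a correlation of at least 0.99 over the 14 libraries on the log2(RPKM + 1) scale, involving 50 of 140 loci, and the median pair was at 0.86. These loci were all chosen for a similar course, so high values are built in. Glyma08g22880 and Glyma07g03220, with models of 2627 and 2629 bases, were at r = 0.999, and Glyma07g03220 had 8.21 and 265 RPKM at stage 1, 398 and 323 at stage 2, 544 and 524 at stage 3, 307 and 156 at stage 4, 139.8 and 97.1 at stage 5, 37.5 and 24.8 at stage 6 and 36.4 and 17.5 at stage 7. Glyma05g20230 and Glyma18g15710, both with models of 142 bases, gave the same values in several libraries, such as 2.93 and 1.23 RPKM at stage 6. The sources used here do not say how reads matching more than 1 model were counted, so the levels of such pairs are uncertain and may share reads. No locus of the 150 had reads within 5% of those of another locus in every library.

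Model length had a median of 1614 bases, against 1368 bases over tested loci, and ran from 138 bases (Glyma03g05330) to 13469. The 3442 loci that peaked at stage 2 or 3 with at least 10 RPKM had a similar median, 1627 bases. Glyma03g05330 had 0.963 and 49.3 RPKM at stage 1, 75.5 and 50.5 at stage 2, 97.4 and 85.4 at stage 3, 62.2 and 33.3 at stage 4, 24.8 and 13.7 at stage 5, 7.42 and 1.89 at stage 6 and 7.17 and 2.90 at stage 7. Of the 150 loci 22 (14.7%) had at least 1 further model, against 17.7% of tested loci and 26.2% of the 3442. These 22 loci had 33 further models in all, and all 33 peaked at stage 2 or 3. Their score was at least 1 in 32, the exception being another model of Glyma05g20230 at 0.94. Models of the same locus may share reads, so nothing is read from this likeness.

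The limit of 150 cut through a dense range of scores. The last loci inside it were Glyma08g13210 (1.27), Glyma17g37820 (1.27) and Glyma17g06170 (1.26), and the first outside were Glyma13g04530, Glyma07g15850 and Glyma06g22920, all at 1.26. The loci just outside differed among themselves: stage 5 was at 2.79% of the peak mean in Glyma13g04530, 29.3% in Glyma07g15850 and 51.4% in Glyma06g22920. Glyma07g15850 had 1.25 and 11.3 RPKM at stage 1, 12.6 and 13.0 at stage 2, 20.3 and 19.8 at stage 3, and 3.73 and 4.91 at stage 6.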

How the data were processed

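Total RNA of 14 cotyledon libraries (7 stages, 2 biological replicates each) was sequenced on an Illumina HiSeq instrument, per the labels' protocols. Bowtie, a read aligner, is named in the list of tools per the submitters' processing notes, and the authors deposited RPKM values for 78773 models of 69145 loci. The sources used here do not give the build, the annotation, the strand or the counting of reads matching more than 1 model. The deposited values were used as they are, except in the alternatives that rescale them. Read numbers and model lengths were recovered from the steps of the RPKM values: all 67016 models above 0 in 2 or more libraries (100%) came out as whole numbers of reads, to a tolerance of 0.003 reads or 1e-08 in relative terms, and libraries held 83.9 M to 131 M reads (M, reads in units of 1e+06).

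The rule was applied in Python 3.11.15 with pandas 2.3.3. Models that reached 1 RPKM in 2 or more libraries (44450, at 35545 loci) were tested in limma 3.58.1 (R 4.3.3, statmod 1.5.0) on log2(RPKM + 1) (changes of low models are understated on this scale). All libraries entered 1 fit of stage means without a replicate term, with 7 residual degrees of freedom and a robust mean-variance trend. Two-sided p-values were adjusted by Benjamini-Hochberg over all tested models of a comparison. The script was tested on simulated data. Loci were named by fixed ranks: the highest scores and levels, the extremes of each class, and the largest called changes, or the smallest p-values, in each comparison. Pairs of alike loci, the 8 further loci called between stages 7 and 1, the 9 loci with a stage 2 peak and Glyma14g35350, Glyma02g37070, Glyma09g01470 and Glyma04g21910 were chosen after their values were seen. The members and lists were chosen with earlier results of these data known. Lists by gene description were not used, since 0 loci matched the RefSeq table (59048 genes, assembly Glycine_max_v4.0). Alternatives were other pseudocounts, filters and scalings, a replicate block, limma voom on the recovered reads, the libraries of 2 stages alone, each library left out, and other settings of the rule.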

Additional observations from a re-analysis of the deposited data

How the results depend on the processing

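The calls of Glyma05g28530 (stage 5 against stage 4) and of Glyma12g10780, Glyma06g45950, Glyma02g03280 and Glyma20g29840 (stage 7 against stage 1) kept their direction under all alternatives run. Some uncalled values changed direction in stage 3 against stage 2. The log2 fold change of Glyma03g10290, 1.79 with all libraries, was -0.31 without stage 3 replicate 1. That of Glyma17g17210 went from -0.22 to 0.33 without stage 2 replicate 1. That of Glyma15g42490 went from -0.18 to 0.18 without stage 3 replicate 2. The number of the 150 loci called between stages 3 and 2 stayed at 0 under the other settings and was 0 to 10 with 1 library left out, with the 10 only without stage 3 replicate 2. For stage 5 against stage 4 the single call became 0 with a pseudocount of 0.5, with no filter, with at least 5 RPKM in 2 libraries, with quantile normalization, upper quartile scaling, rescaling without the Glyma13g11 and Glyma13g12 identifiers, and limma voom, and 0 to 2 with 1 library left out, with 2 only without either stage 1 library. For stage 7 against stage 6 it was 1 with the replicate block or upper quartile scaling, and 0 to 2 with 1 library left out. For stage 7 against stage 1 it was 1 with only the libraries of the 2 stages, and 4 to 77 with 1 library left out, with a median of 0.49 without stage 1 replicate 2 against -0.44 with all libraries. The cause of these differences was not tested. Replicate numbers were not taken as pairs: deviations of same-numbered libraries correlated over 0.1 in 18 of 21 pairs of stages and not in every one (-0.17 to 0.60, median 0.27). With that block 0, 1, 1 and 16 of the 150 loci were called, and 0, 51, 759 and 15965 models in all, against 0, 27, 458 and 15596. Over all alternatives the models called in all ran from 0 to 38, 0 to 138, 0 to 1715 and 6419 to 19873. Of the 150 loci, 98 remained with a peak of at least 20 RPKM, 70 with the smaller replicate of each stage, and 54 (without stage 1 replicate 1) to 150 with 1 library left out; without stage 1 replicate 2, 80 remained. Stage 4 was over 50% of the peak in 95 loci, in 55 (without stage 4 replicate 1) to 128 with 1 library left out, and in 95 without the 10 loci with over 90% of their signal in 1 library, a check chosen after seeing the data. With 2 libraries per stage, the stage 1 level of most loci depended largely on 1 library, and the stage 4 counts moved with the library used.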

Other observations

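The difference between the stage 3 replicates seen in 10 of the 150 loci reached beyond them. Over the 35545 tested loci, 246 had at least 1 RPKM in stage 3 replicate 1 and at least 10 times the value of stage 3 replicate 2, and 29 the reverse. In 242 of these 246 loci stage 1 replicate 1 was also above stage 1 replicate 2, against 31.5% of the tested loci. Of the 64 tested loci with a model of at least 8000 bases, 28 had their highest value in stage 3 replicate 1, and in 26 it was at least 10 times that of stage 3 replicate 2. The sources used here do not say what these long loci encode, and these counts were made after the 10 loci had been seen.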
